A study of Homo sapiens with 76 samples.

Results

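The cells described here are the 19 HEK293 cells with the highest and the 19 with the lowest share of immediate early gene transcripts, out of 76 single cells profiled in all. For each cell the unique molecular identifiers (UMIs, tags that count each captured RNA molecule once) of FOS, JUN, JUNB, EGR1, IER2 and MYC were summed and divided by the cell's UMIs over all human genes. The 76 cells were ranked by this immediate early share, and the 19 cells at each end are called high and low cells below. The other 38 cells lie between them. These 6 genes chose the cells, so their own levels are a description of the choice, and every other gene was compared between the high and the low cells.

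HEK293 is an established line of human embryonic kidney cells transformed with adenovirus DNA. All 76 cells belonged to 1 group of untreated cells, grown in DMEM with glutamine and 10% fetal calf serum, and no stimulus is given in the labels. Each cell was lysed in its own chamber of a Fluidigm C1 chip with ERCC spike-in RNA at 20000 molecules per cell, and the 5' ends of its polyadenylated RNAs were counted. The labels name 1 line and no separate cultures, so the cells are members of 1 sample and not replicates of a condition. For that reason no test across cells was made. Each ratio carries a 95% interval for counting error only, which leaves out the spread from cell to cell.

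Immediate early genes are switched on within minutes of a signal such as serum, growth factors or stress, without new protein synthesis. ERK and related kinases act on factors already bound at their promoters, above all serum response factor (SRF) at CArG boxes and CREB at cAMP response elements. FOS, JUN and JUNB encode subunits of the AP-1 transcription factor, EGR1 a zinc finger transcription factor, IER2 a nuclear regulator and MYC a driver of growth genes. Their mRNAs are short-lived, and phosphatases such as DUSP1 close the loop by inactivating the kinases.

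The promoters of 3 of the ranking genes and of DUSP1 are printed because they hold motifs known for this signal. Each is the 250 bases before the transcription start in RefSeq on GRCh38.p14, written along the gene's own strand. The deposited counts were made on hg19, and these coordinates belong to GRCh38.p14 alone. Capitals mark CArG boxes, TGACGT (the core of the cAMP response element) or TGACNTCA (the AP-1-like site in the JUN promoter), searched on both strands, so that ACGTCA is TGACGT on the other strand and TGACGTCA matches both of the last 2 motifs.
EGR1, chr5:138465229-138465478, plus strand: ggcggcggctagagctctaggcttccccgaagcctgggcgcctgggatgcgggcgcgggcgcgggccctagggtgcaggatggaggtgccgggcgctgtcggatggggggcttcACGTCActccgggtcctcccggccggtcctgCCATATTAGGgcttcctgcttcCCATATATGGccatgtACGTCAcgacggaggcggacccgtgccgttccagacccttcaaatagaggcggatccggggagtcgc
FOS, chr14:75278578-75278827, plus strand: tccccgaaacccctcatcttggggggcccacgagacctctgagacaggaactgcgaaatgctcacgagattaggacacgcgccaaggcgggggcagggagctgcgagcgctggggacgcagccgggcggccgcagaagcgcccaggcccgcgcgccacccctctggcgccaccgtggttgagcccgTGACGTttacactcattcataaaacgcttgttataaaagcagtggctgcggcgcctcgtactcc
JUN, chr1:58784048-58784297, minus strand: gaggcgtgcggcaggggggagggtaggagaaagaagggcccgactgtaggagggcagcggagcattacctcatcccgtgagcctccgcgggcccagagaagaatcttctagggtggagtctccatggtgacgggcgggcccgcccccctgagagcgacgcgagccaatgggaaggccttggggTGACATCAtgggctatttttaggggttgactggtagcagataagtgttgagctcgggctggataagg
DUSP1, chr5:172771196-172771445, minus strand: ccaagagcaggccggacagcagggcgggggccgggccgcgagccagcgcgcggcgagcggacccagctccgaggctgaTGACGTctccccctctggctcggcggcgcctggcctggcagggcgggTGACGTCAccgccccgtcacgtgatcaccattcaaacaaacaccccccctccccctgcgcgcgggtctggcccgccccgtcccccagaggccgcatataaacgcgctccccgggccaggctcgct
EGR1 held 2 CArG boxes, which began 105 and 83 bases before the start, between 2 copies of TGACGT at 136 and 67 bases. FOS held TGACGT 64 bases before its start, and JUN held TGACATCA, a match of TGACNTCA, 67 bases before its start. Neither window held a CArG box, but sites farther than 250 bases before the start were not searched. The window of MYC was not read. The windows of JUNB and IER2 held none of these 3 motifs, nor did that of ID2, and HES1 held TGACGT at 220 bases. In all 35116 RefSeq windows of this length, 1.16% held a CArG box, 7.10% held TGACGT and 6.87% held TGACNTCA. A match is a description of these letters and not a measured binding site.

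The high cells held more RNA in the libraries than the low cells, and this difference accompanies every comparison below. High cells had a median of 26574 endogenous UMIs (8272 to 43392) and low cells a median of 14386 (7305 to 29696), so the groups overlapped. Spike-in UMIs differed less, with medians of 2349 and 2021. Endogenous UMIs per spike-in UMI had medians of 10.6 and 7.32, and genes detected per cell had medians of 4759 and 3151. After every cell was thinned to 10940 UMIs, which left 18 high and 15 low cells, the medians were 3019.5 and 2711 genes. Across the 76 cells the immediate early share had a Spearman rho of 0.44 with total UMIs, a description of cells that share 1 library preparation. The labels number the cells, with medians of 32 in the high and 67 in the low cells, and do not say what the number marks. The part of depth or of cell number in the results was not tested. Ratios are therefore also given from a ranking made separately among the 38 shallower and the 38 deeper cells, called depth-matched below. Each end took near-equal numbers of cells from both sets, so the near-equal median totals (21643 and 21104) follow from that choice. Depth was matched by these sets only, not cell by cell. The high cells still pooled more UMIs, for example 131845 against 110276 of cytosolic ribosomal protein genes at a ratio of 0.891. This ranking kept 16 of the 19 high cells and 14 of the 19 low cells.

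The immediate early share reached 0.247% in the top cell, with no gap at either boundary. In the high cells its lowest value was 0.0972%, its median 0.120% and its highest 0.247%. In the low cells the lowest value was 0, the median 0.0142% and the highest 0.0332%. The cell just inside the high group (cell 62) had 0.0972% and the cell just outside it (cell 55) had 0.0970%. At the other boundary cell 74, the last low cell, had 0.0332% and cell 16, just outside, had 0.0344%. The ends are therefore the tails of a continuous ranking and not 2 separate groups of cells.

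**Figure D1:**
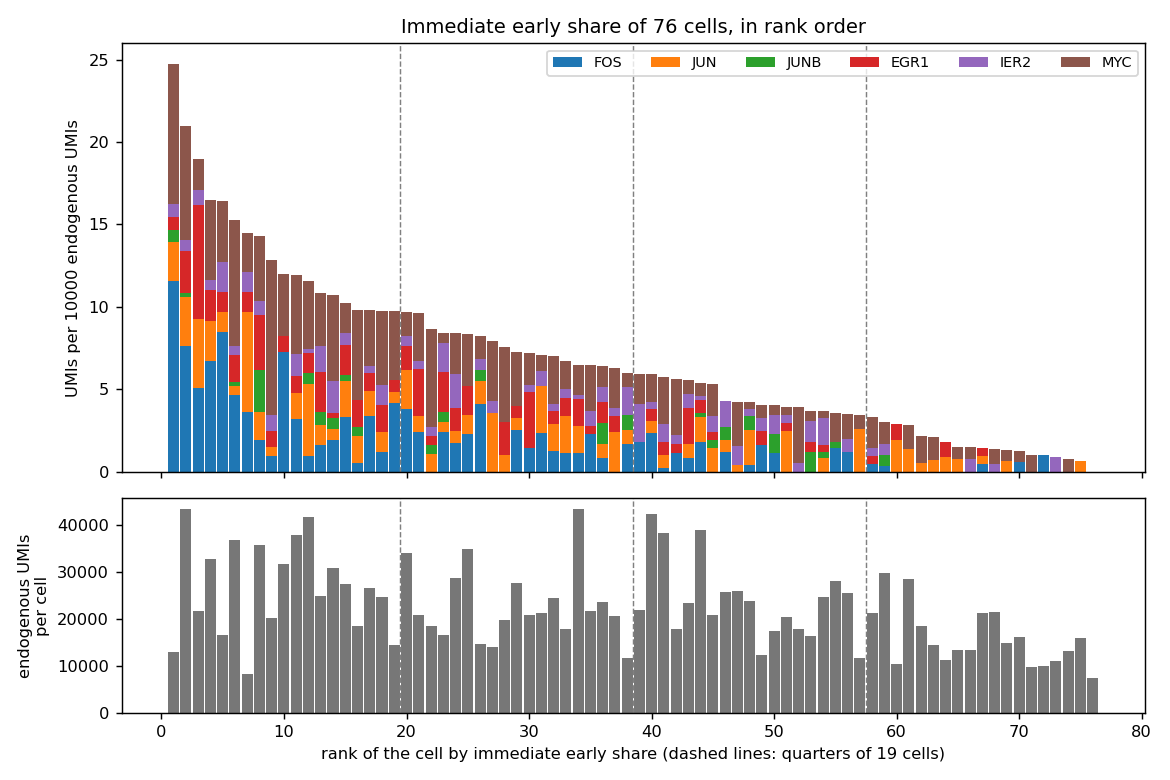
Upper panel: UMIs of the 6 ranking genes per 10000 endogenous UMIs (vertical axis) in each of the 76 cells in rank order (horizontal axis), coloured by gene. Lower panel: endogenous UMIs of the same cells. Dashed lines separate successive groups of 19 cells. The share shows no gap at the first or last dashed line, and the 19 cells on the right have a lower median depth than the 19 on the left.

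FOS and MYC made up most of the immediate early UMIs in the high cells, but the mix varied from cell to cell. A high cell held a median of 32 immediate early UMIs (12 to 91) and a low cell a median of 2 (0 to 9). The gene with the most UMIs was MYC in 8 high cells, FOS in 6, JUN in 2 and EGR1 in 1, with a tie in 2. High cells had UMIs from a median of 5 of the 6 genes and low cells from a median of 2, and 8 high cells had all 6. Thinned to equal depth, the medians were 4 and 2 genes. UMI counts of different genes in a cell are not corrected for how well each transcript was captured.

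Single high cells show how different the mixtures were. Cell 48, with the highest share, held 15 FOS and 11 MYC UMIs among 32 in a shallow library of 12934 UMIs. Cell 13, next in rank, held 33 FOS and 30 MYC UMIs among 91. Cell 85 was led by EGR1, with 15 of its 41 immediate early UMIs. In cell 6, MYC supplied 19 of 26 UMIs, and in cell 33 JUN supplied 18 of 48. Cell 2 held 9 JUNB UMIs, out of 21 in all high cells together. At the other end, cell 10 held no UMI of any of the 6 genes in a library of 7305 UMIs, which allows a share of up to 0.0411% (3 UMIs).

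Among the AP-1 genes FOS separated the ends most. Its level in UMIs per 10000 endogenous UMIs of the cell was 0.545, 3.39 and 11.6 (lowest, median and highest) in the high cells and 0, 0 and 0.999 in the low cells. Pooled, these were 201 UMIs against 5, a ratio of 23.9 (10.1 to 74.3). JUN, the partner of FOS in AP-1, ran 0, 1.59 and 6.04 per 10000 against 0, 0 and 1.92, with pooled counts of 95 and 13 and a ratio of 4.34 (2.42 to 8.45). JUNB, a second JUN family member, was sparse, with 21 against 2 UMIs and UMIs in 9 high cells and 1 low cell. Among the other 3 genes IER2 had the narrowest range. EGR1 ran 0.325, 1.21 and 6.93 per 10000 against 0, 0 and 0.959 (91 and 4 UMIs, ratio 13.5). MYC ran 1.83, 4.17 and 9.40 against 0, 0.749 and 1.90 (242 and 25 UMIs, ratio 5.75), and IER2 ran 0, 0.773 and 1.95 against 0, 0 and 0.914 (41 and 6 UMIs, ratio 4.06). Every high cell had at least 1 UMI each of FOS, EGR1 and MYC, while 5, 4 and 12 low cells did. These contrasts follow from the choice of cells.

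A less circular view takes each gene out of the ranking, orders the cells by the other 5 genes, and reads the gene left out. These rankings kept 14 to 18 of the 19 high cells and 16 to 19 of the 19 low cells, so they largely reuse the same cells. Median totals were 21643 to 27318 UMIs at the high end and 13360 to 15847 at the low end. EGR1 then stood at 89 UMIs in the 19 cells of highest share against 4 in the 19 of lowest, a ratio of 13.1 (4.93 to 48.99). FOS stood at 159 against 13, a ratio of 7.82 (4.44 to 15.0). MYC followed with a ratio of 3.29 (2.32 to 4.79) and JUN with 2.18 (1.34 to 3.72). For JUNB (2.83, 0.949 to 11.4) and IER2 (1.42, 0.754 to 2.79) the interval included 1. EGR1 and FOS thus had the largest ratios and IER2 the smallest, with overlapping intervals between neighbours in this order. The closest pairs over the 76 cells were FOS with EGR1 (Spearman rho of shares 0.52), EGR1 with MYC (0.50), FOS with MYC (0.46) and JUN with EGR1 (0.45). All pairs share each cell's depth. In the 71 cells that could be thinned to equal depth the same pairs had rhos of 0.42, 0.32, 0.23 and 0.32.

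Outside the ranking genes, 1561 genes had at least 76 UMIs over the 38 cells and were compared. Of these, 181 stood at least 1.5-fold higher in the high cells (11.6%) and 78 at least 1.5-fold lower (5.00%) by pooled level. The median gene had a log2 ratio of −0.01. By 3 measures together (pooled level, mean of the cells' levels, and pooled level without the gene's highest cell) 120 genes were higher (7.69%) and 44 lower (2.82%). None of the 1561 genes had high and low cells that did not overlap. The other 15946 genes outside the ranking set were too sparse to be compared singly. Under the depth-matched ranking 141 of 1634 genes were higher and 59 lower, among them 101 of the 181 and 36 of the 78. Scaled to spike-in UMIs in place of the cell's own total, the median log2 ratio moved to 0.54, with 713 genes higher and 3 lower, so every direction below is relative to the cell's total RNA.

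**Figure D2:**
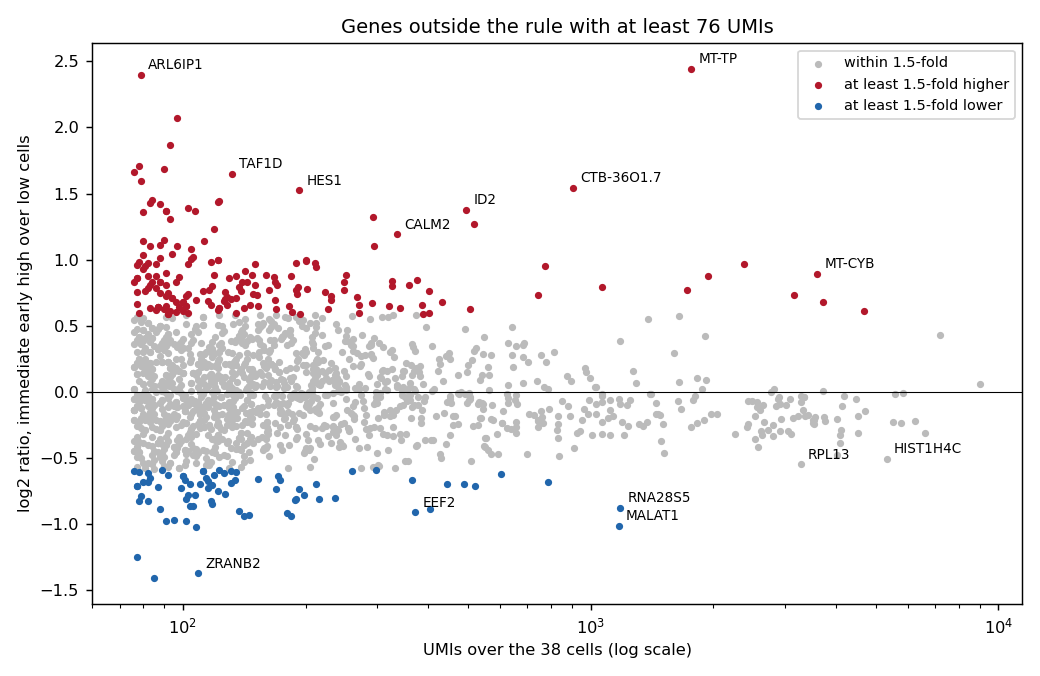
Log2 ratio of pooled level, high over low cells (vertical axis), against UMIs over the 38 cells (horizontal axis, log scale) for each of the 1561 compared genes. Red and blue points lie at least 1.5-fold from equality. MT-TP and ARL6IP1 lie highest, and MALAT1 and RNA28S5 are the most abundant genes in blue.

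Further immediate early genes were higher in the same cells, though most were too sparse to be read one by one. The list holds 36 other immediate early genes (mostly transcription factors), of which 30 had any UMI in the 38 cells and 1 was abundant enough to be compared. Together they had 355 UMIs in the high cells against 96 in the low cells, a ratio of 2.20 (1.75 to 2.78), and 2.01 under the depth-matched ranking. Per cell, their summed share was 0.0366%, 0.0617% and 0.111% (lowest, median and highest) in high cells and 0, 0.0273% and 0.0757% in low cells. The compared gene was CCNL1, a cyclin that works with splicing kinases, with 72 against 16 UMIs and a ratio of 2.67 (1.54 to 4.92). KLF10, a zinc finger repressor, had 34 against 4 UMIs, but 12 of the 34 came from cell 33. JUND, a further JUN family member, had 27 against 4 UMIs and was seen in 13 high and 3 low cells. SRF itself stood at 49 against 19 UMIs, and its ratio of 1.53 (0.885 to 2.75) had an interval that included 1.

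Negative feedback genes of the kinase pathway were higher in sum in the high cells, with DUSP1 the most abundant. The 19 listed regulators summed to 115 against 32 UMIs, a ratio of 2.13 (1.43 to 3.26) and 1.74 under the depth-matched ranking, and no member reached the count needed for comparison. Without the 19 cells of highest G2 and M share the ratio was 1.61 (0.982 to 2.75), with an interval that included 1. Without the 19 of highest mitochondrial mRNA share it was 2.55 (1.48 to 4.65). DUSP1 accounted for 44 of the 115 UMIs and 4 of the 32, in 14 high and 4 low cells, a ratio of 6.53 (2.38 to 25.0). Its highest cells held 9 UMIs (cell 63, high) and 1 UMI (cell 17, low). By pooled level it ran 0.870, 0.945, 0.420 and 0.133 per 10000 in successive groups of 19, so the second group stood above the high cells. SPRY1, a Sprouty inhibitor of receptor tyrosine kinase signalling, had 21 against 5 UMIs (2.49, 0.915 to 8.46). The 17 genes of mRNA decay and antiproliferative control, which clear short-lived mRNAs or restrain division, summed to a ratio of 1.42 (1.17 to 1.74). This ratio was 1.25 (0.981 to 1.61) without the cells of highest G2 and M share and 1.45 (1.14 to 1.85) without those of highest mitochondrial mRNA share. The kinases and adaptors upstream differed less in sum. The 35 ERK and JNK cascade genes had 621 against 347 UMIs, a ratio of 1.06 (0.930 to 1.22), with neither of the 2 compared members (YWHAB 1.10, YWHAZ 1.03) past 1.5-fold. Their sum was 1.18 (1.04 to 1.34) under the depth-matched ranking. Without the 19 cells of highest G2 and M share it was 1.22 (1.03 to 1.46). Without the 19 of highest mitochondrial mRNA share it was 1.19 (1.01 to 1.40).

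Outside the immediate early genes, ID2 and HES1, repressors known for holding cells in an undifferentiated state, were higher in the high cells. ID2 encodes a helix-loop-helix protein that binds partner transcription factors but not DNA, and HES1 a repressor downstream of Notch. ID2 stood at 2.26, 6.22 and 34.1 UMIs per 10000 (lowest, median and highest) in high cells and 0, 1.54 and 14.3 in low cells. All 19 high cells lay above the low cells' median, although the groups overlapped. The pooled counts were 403 and 92 UMIs, a ratio of 2.60 (2.07 to 3.30), with 2.38 under the depth-matched ranking. HES1 stood at 0, 2.78 and 14.7 per 10000 against 0, 0.546 and 3.72, with 160 and 33 UMIs and a ratio of 2.88 (1.97 to 4.32). Its depth-matched ratio was 2.398.

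The highest ID2 and HES1 levels came from different high cells. Cell 6, in which MYC supplied most of the immediate early UMIs, held 69 ID2 UMIs, the highest level of all high cells, and an HES1 level of 0.494 per 10000. Cell 48, the top cell of the ranking, had the highest HES1 level (19 UMIs). Among the low cells, cell 67 had the highest level of both, with 23 ID2 and 6 HES1 UMIs, on 2 immediate early UMIs in a library of 16117. By pooled level ID2 stood at 7.97 per 10000 in the high cells and at 3.27, 3.03 and 3.06 in the following groups of 19. Of the 15 listed ID and Notch genes 5 were compared, 2 were higher and none was lower, beside 11.6% and 5.00% of all compared genes. ID3 (1.32), HEY1 (1.37) and HES4 (0.930) lay within 1.5-fold, and ID1 had 38 against 5 UMIs. The list summed to 1.95 (1.705 to 2.24), against 1.73 under the depth-matched ranking, and its share had the highest rho with the immediate early share of the lists examined (0.63 over 76 cells).

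**Figure D3:**
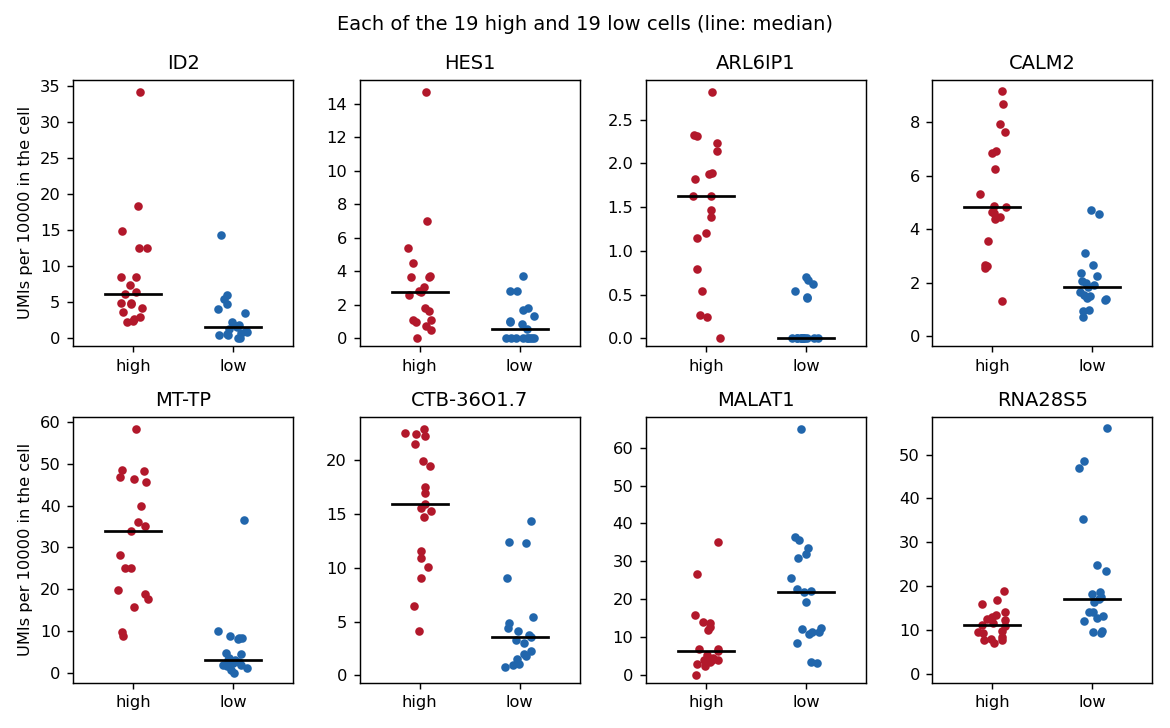
UMIs per 10000 endogenous UMIs (vertical axis) of 8 genes in each of the 19 high (red) and 19 low (blue) cells, with horizontal lines at the medians. The groups overlap for every gene; all 19 high cells lie above the low cells' median for ID2, MT-TP and CTB-36O1.7.

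Genes that follow the immediate early wave in time, or that MYC and SRF are known to act on, had summed ratios between 0.864 and 1.09. The delayed early and G1 entry list had 1.09 (0.943 to 1.25), and 1.17 (1.02 to 1.34) under the depth-matched ranking. Among 4 compared delayed early and G1 entry genes TIMP1, an inhibitor of matrix proteases, stood 1.61-fold higher (1.02 to 2.60) and CDK4, HMGA1 and ODC1 stood at 0.887, 0.981 and 0.904. TIMP1 stood at 1.32 under the depth-matched ranking, inside 1.5-fold. The 42 MYC targets in ribosome biogenesis and nucleotide synthesis had a summed ratio of 1.00 (0.968 to 1.04), with 5 of 30 compared members higher and 1 lower, beside 11.6% and 5.00% of all compared genes. The sum stood at 1.15 (1.10 to 1.204) without the 19 cells of highest G2 and M share and at 1.14 (1.09 to 1.19) without the 19 of highest mitochondrial mRNA share. Those past the fold included EIF4E, the cap-binding initiation factor (3.17, 1.69 to 6.45), DKC1, the pseudouridine synthase of snoRNPs (2.00), and NOP16, a nucleolar protein (1.73). NHP2, which works in the same snoRNP as DKC1, was the one lower (0.649, 0.552 to 0.765). Under the depth-matched ranking 2 of 31 compared MYC targets were higher and none was lower. There EIF4E stood at 2.35, DKC1 at 1.54, NOP16 at 1.34 and NHP2 at 0.707. SRF and YAP targets of the actin skeleton stood slightly lower in sum (0.864, 0.819 to 0.911), with none of 5 past 1.5-fold. ACTB had 1073 against 749 UMIs (0.851) and ACTG1 1743 against 1192 (0.868), and under spike-in scaling these ratios were 1.24 and 1.27.

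Genes of G2 and mitosis were higher in the high cells, 13 of 20 compared and none lower, against 11.6% and 5.00% of all compared genes. The list of 47 measured genes summed to 3204 against 1177 UMIs, a ratio of 1.62 (1.51 to 1.73). ARL6IP1, a membrane protein of the endoplasmic reticulum often listed with mitotic genes, stood at 0, 1.62 and 2.81 per 10000 (lowest, median and highest) in high cells and 0, 0 and 0.705 in low cells. It had 71 against 8 UMIs, a ratio of 5.27 (2.53 to 12.7), and was seen in 18 high and 6 low cells. UBE2C, the ubiquitin-conjugating enzyme of the anaphase-promoting complex, had 236 against 56 UMIs (2.50, 1.86 to 3.41). CCNB2 (2.47), CKS2 (2.14), CDK1 (1.74) and CCNB1 (1.84), which form or bind the mitotic kinase, were also higher, as were TOP2A (1.85), AURKB (1.95), KPNA2 (1.79) and HMGB2 (1.92). MAD2L1 (0.992) and PTTG1 (1.09) were not.

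The cells with the most G2 and M transcripts were concentrated at the top of the ranking. Of the 19 cells with the highest share of the list, 10 were high cells and none was a low cell, while 9 lay between. The list's share was 0.371%, 0.590% and 1.12% (lowest, median and highest) in high cells and 0.212%, 0.385% and 0.529% in low cells. When these 19 cells were set aside and 14 cells were taken at each end of the rest, the list ratio was 1.16 with 3 of 13 compared genes higher. CCNB1 then stood at 0.765, below 1, while ARL6IP1 kept a ratio of 6.83, ID2 2.42 and the other immediate early genes in sum 2.43. In the depth-matched ranking the list ratio was 1.43 with 7 of 19 higher. The S phase list had a summed ratio of 0.997 (0.941 to 1.06) over all cells, and 1.27 (1.18 to 1.37) with the G2 and M cells set aside. Of its 24 compared members 2 were higher, PCNA, the replication clamp (1.65, 1.23 to 2.26), and SLBP, which binds histone mRNA (3.27, 1.75 to 6.64). Replication-dependent histones, almost all HIST1H4C (2889 against 2436 UMIs), summed to 0.712 (0.675 to 0.751) and to 1.04 under spike-in scaling.

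**Figure D4:**
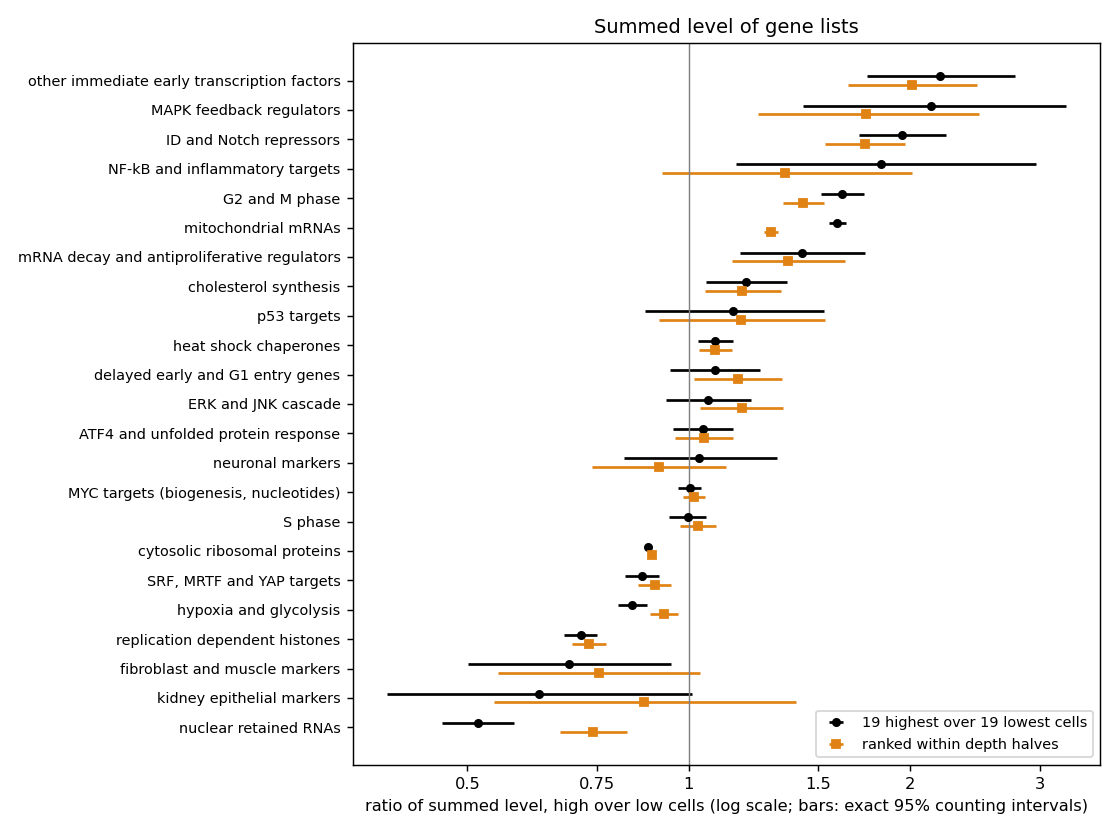
Ratio of summed level, high over low cells (horizontal axis, log scale), for the gene lists other than blood and immune markers, with exact 95% counting intervals. Black circles are the 19 highest over the 19 lowest cells and orange squares the depth-matched ranking. Other immediate early genes, feedback regulators and ID and Notch repressors lie farthest right under both, and nuclear retained RNAs lie farthest left among the black circles.

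Mitochondrial transcripts were higher in the high cells, led by a tRNA. MT-TP, the mitochondrial proline tRNA gene, stood at 8.75, 33.9 and 58.4 UMIs per 10000 (lowest, median and highest) in high cells and 0, 3.10 and 36.6 in low cells. All 19 high cells lay above the low cells' median, and the low cell that overlapped most was again cell 67, with 59 UMIs. The pooled counts were 1593 and 174 UMIs, a ratio of 5.44 (4.65 to 6.39), and the depth-matched ratio was 3.59. MT-TC, MT-TY and MT-TF, the tRNAs for cysteine, tyrosine and phenylalanine, had ratios of 4.21, 3.65 and 2.42, which were 2.24, 3.02 and 2.22 under the depth-matched ranking. Without the 19 cells of highest G2 and M share they were 2.18, 1.91 and 1.24, and MT-TP stood at 3.51. Whether reads were counted by strand is not given in the sources used here, and the mitochondrial genome is read from both strands, so the origin of these tRNA counts is uncertain.

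The 13 mitochondrial mRNAs, which encode respiratory chain subunits, all stood above 1, and 8 were past 1.5-fold, beside 11.6% of all compared genes. MT-CO3, a cytochrome c oxidase subunit, ran 10.6, 38.1 and 81.3 per 10000 in high cells against 3.79, 17.7 and 57.7 in low cells, a ratio of 1.95 (1.77 to 2.15). MT-CYB, of the cytochrome bc1 complex, had 2730 against 872 UMIs (1.86, 1.72 to 2.01). The sum had a ratio of 1.59 (1.55 to 1.63), which was 1.29 under the depth-matched ranking with 1 of 13 past 1.5-fold. Of the 19 cells with the highest share of these mRNAs, 11 were high cells and 1 was a low cell. With those 19 cells set aside the list ratio was 1.53, ID2 stood at 2.95 and MT-TP at 7.67. This also widened the depth gap, with median totals of 32409.5 and 13286.5 UMIs in the 14 cells at each end. Of those 14 highest cells 8 were high cells of the full ranking.

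A few further genes were among the 15 with the firmest counting interval. CALM2, which encodes the calcium sensor calmodulin, stood at 1.33, 4.84 and 9.16 per 10000 in high cells and 0.695, 1.83 and 4.71 in low cells, with 266 and 69 UMIs and a ratio of 2.29 (1.75 to 3.03). It had UMIs in all 38 cells, and 18 of 19 high cells lay above the low cells' median. TAF1D, of the RNA polymerase I initiation complex, had 111 against 21 UMIs (3.14, 1.96 to 5.27), with a depth-matched ratio of 1.96. Its level was 2.19 per 10000 in the high cells, 2.03 and 2.04 in the middle groups and 0.699 in the low cells, so it stood apart in the low cells. CTB-36O1.7, a clone-based gene name in the table that matched no RefSeq symbol, had 751 against 153 UMIs (2.91, 2.45 to 3.49) and a rho of 0.60 with the immediate early share over 76 cells, the highest among genes outside the ranking set with a mean of at least 2 UMIs per cell. Its depth-matched ratio was 1.91. EIF4A3, the helicase of the exon junction complex, had 100 against 22 UMIs (2.70) and a rho of 0.51. C14orf119 had 76 against 14 UMIs (3.22), with a depth-matched ratio of 1.86.

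MALAT1 and RNA28S5 were the most abundant of the 15 named lower genes. MALAT1, a long RNA kept in nuclear speckles, stood at 0, 6.32 and 35.1 UMIs per 10000 (lowest, median and highest) in high cells and 3.10, 21.9 and 64.9 in low cells. The groups overlapped, and 2 high cells lay above the low cells' median. Pooled counts of 533 and 638 UMIs gave a ratio of 0.496 (0.441 to 0.557), which was 0.713 under the depth-matched ranking and 0.724 under spike-in scaling, inside 1.5-fold in both. NEAT1, another nuclear RNA, had 34 against 23 UMIs (0.878, 0.502 to 1.56). RNA28S5, the large ribosomal RNA, stood at 6.95, 11.1 and 18.9 per 10000 in high cells and 9.31, 16.98 and 56.1 in low cells. Its ratio was 0.546 (0.486 to 0.612) and its depth-matched ratio 0.575, and cell 10, which held no immediate early UMI, had the highest level of the low cells. Cell 16, the cell just outside the low group, stood higher still (67.1 per 10000).

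The other 13 named lower genes have varied roles. EEF2, the elongation factor that moves the ribosome along mRNA, had 176 against 196 UMIs (0.533, 0.432 to 0.657). YBX1, an mRNA-binding protein, stood at 1.61, 4.17 and 10.4 per 10000 in high cells and 4.34, 9.04 and 15.5 in low cells (0.610, 0.512 to 0.727). The splicing proteins ZRANB2 (0.387), NSRP1 (0.522) and LUC7L3 (0.616) and the exosome subunit EXOSC9 (0.377) were lower. So were SLC25A6, an ADP/ATP carrier (0.541), COPS6 of the COP9 signalosome (0.521), POP7 of RNase P (0.531), TCEB2, which is elongin B (0.625), and DTD1, FAM136A and CDC42, at 0.422, 0.524 and 0.493. Under the depth-matched ranking 10 of these 15 lower genes and 14 of the 15 higher genes stayed past 1.5-fold. CDC42, a GTPase of the cytoskeleton, was among those that did not (0.760).

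Cytosolic ribosomal protein genes stood slightly lower as a body, none of 79 past 1.5-fold. They summed to a ratio of 0.881 (0.874 to 0.889), 6 of 79 lay above 1, and their share was 21.9%, 27.02% and 33.4% (lowest, median and highest) in high cells and 25.4%, 31.7% and 36.7% in low cells. RPS3 (0.718) and RPL13 (0.685) had the lowest rho with the immediate early share (−0.50 and −0.49). Under spike-in scaling the list ratio was 1.29, above 1. Glycolysis genes showed the same pattern, with none of 9 past the fold and a sum of 0.838 (0.802 to 0.876) that became 1.22 under spike-in scaling. GAPDH had 1761 against 1280 UMIs (0.817) and ENO1 843 against 647 (0.774). The counts of ribosomal protein genes and of SLC25A6 may be shared with near-identical copies elsewhere in the genome.

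Of the stress programs that also call on immediate early genes, the unfolded protein response was closest to equal in sum. Heat shock chaperones summed to 1.09 (1.03 to 1.15), and HSPA8, the constitutive HSP70, was the only one of 12 past 1.5-fold (549 against 196 UMIs, 1.66, 1.41 to 1.97). HSP90AA1 stood at 0.805. Under the depth-matched ranking HSPA8 stood at 1.45 and none of 12 was past 1.5-fold. The chaperone sum was 1.23 without the 19 cells of highest G2 and M share and 1.32 without the 19 of highest mitochondrial mRNA share. ATF4 and unfolded protein response genes summed to 1.04 (0.951 to 1.15) with none of 10 past the fold. NF-kB targets were sparse, 80 against 26 UMIs (1.83, 1.16 to 2.96; 1.35 under the depth-matched ranking), and p53 targets had 153 against 79 (1.15, 0.871 to 1.53). The p53 ratio was 2.03 (1.32 to 3.24) without the 19 cells of highest mitochondrial mRNA share. It was 0.959 (0.657 to 1.42) without the 19 of highest G2 and M share. CDKN1A, which encodes the p21 inhibitor, stood the other way from the sum over all cells, at 10 against 18 UMIs. Cholesterol synthesis genes summed to 1.197 (1.05 to 1.36), with 4 of 6 compared members higher, beside 11.6% of all compared genes, and 2 of them by all 3 measures. They were INSIG1, the sterol sensor (2.15), and the enzymes SQLE (1.69), IDI1 (1.61) and DHCR7 (1.599). Under the depth-matched ranking 4 of 6 compared members were again higher, while SQLE stood at 1.38. Without the 19 cells of highest G2 and M share the sum was 1.11 (0.952 to 1.30), neither of 2 compared members was past 1.5-fold, and INSIG1 stood at 1.31.

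Markers of other cell types had few UMIs in either group. Of 15 blood and immune genes 3 were in the table, with 3 UMIs in the high cells and 2 in the low cells, and CD74 had none in either. Neuronal markers, some of which HEK293 cells are known to express, summed to 1.03 (0.815 to 1.32), with UCHL1 at 128 against 55 UMIs and NEFM at 41 against 39 (0.624). Of these 2 compared members NEFM was past 1.5-fold lower by pooled level, but not by all 3 measures. Kidney epithelial markers had 39 against 37 UMIs (0.626, 0.389 to 1.01), mostly KRT18. Fibroblast and muscle markers had 88 against 76 UMIs, of which VIM gave 79 and 74 (0.634, 0.456 to 0.882). VIM, the 1 compared member, was also past 1.5-fold lower by pooled level but not by all 3 measures.

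Some differences were graded along the whole ranking and most were not. The pooled level declined in every step from high to low in 57 of the 181 higher genes (31.5%) and increased in every step in 23 of the 78 lower genes (29.5%). These genes were chosen by the difference between the first and last groups, which fixed the direction between the ends. The share of all compared genes with such steps was not counted, so no reading on grading is drawn from these shares. Of the 181 higher genes 78 stood higher in the second group of 19 cells than in the third (43.1%), compared with 812 of all 1561 genes (52.02%). Of the 78 lower genes it was 36 (46.2%). Among the 15 named higher genes 3 declined in every step from high to low, and among the 15 named lower genes 5 increased in every step. MALAT1 was one of these, at 10.5, 15.9, 17.4 and 21.2 UMIs per 10000 in successive groups, and RNA28S5 another, at 11.2, 13.7, 15.1 and 20.5. HES1, by contrast, ran 3.16, 1.38, 1.62 and 1.10, and MT-TP ran 31.5, 15.96, 19.6 and 5.79.

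**Figure D5:**
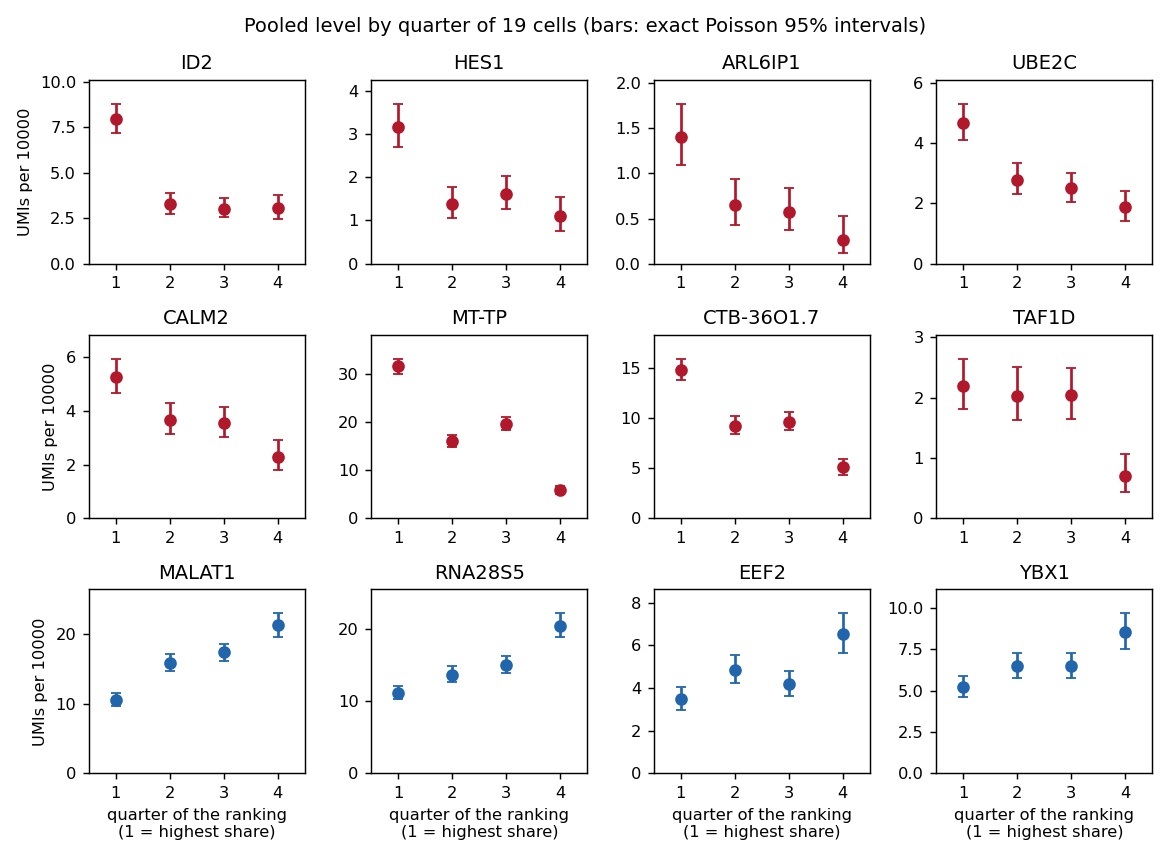
Pooled UMIs per 10000 endogenous UMIs (vertical axis) in the 4 successive groups of 19 cells (horizontal axis, 1 = highest immediate early share), with exact Poisson 95% intervals, for 8 higher (red) and 4 lower (blue) genes. ID2 and HES1 stand apart in the first group, TAF1D in the last, and MALAT1 increases in every step.

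The promoter motif found in FOS, EGR1 and DUSP1 was also looked up in the compared genes with a RefSeq window, mitochondrial genes left out. TGACGT was present within 250 bases before the start in 30 of 135 higher genes (22.2%), 5 of 68 lower genes (7.35%) and 210 of 1281 compared genes (16.4%). CArG boxes were in 1 of 135 higher, 1 of 68 lower and 20 of 1281 compared genes (1.56%). Windows were matched for 81.3% of the higher and 87.2% of the lower genes, by symbol. A gene was counted when any of its windows held the motif, whereas the shares of all RefSeq windows above were counted per window. The 2 kinds of share are therefore not alike. These are counts of letters in genes chosen by their ratio, given with no test. The longest transcript of a gene had a median of 2568 bases among the higher, 2274 among the lower and 2240 among all compared genes with a length in GENCODE.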

How the data were processed

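Single HEK293 cells were profiled by 5' selective, UMI-tagged RNA-seq. The deposited table holds the authors' UMI counts per gene and cell, whole numbers that are not normalized; trimming and alignment tools (cutadapt 1.2.1 and STAR 2.4.0a) and the build, hg19/GRCh37, come from the submitters' processing notes. For the counting tool and multiply mapped reads no source used here gives a name or setting. The table has 17513 human genes and 80 spike-in rows for 76 cells. A row named GENE, 0.197% of all counts, was left out, and spike-ins were kept apart. No pair of cells had identical counts, all cells were kept, and no doublet caller was run.

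Levels are pooled UMIs per 10000 endogenous UMIs. Ratios have exact conditional (Clopper-Pearson) 95% intervals and pooled levels exact Poisson 95% intervals, for counting error only. Genes outside the 6 ranking genes with at least 76 UMIs over the 38 cells were compared, and 1.5-fold was the mark. Named genes are the 6 ranking genes, the 15 higher and 15 lower genes past the mark by 3 measures with the firmest intervals, list members by the same mark or by abundance, and the 5 of highest and of lowest rho (mean of at least 2 UMIs). Members, lists and rules were chosen with earlier results of these data known. The comparison was run on simulated counts with known folds, drawn with counting error only and without ranking the cells. The simulation therefore cannot check the effect of cell-to-cell spread or of the choice of cells. Python 3.11.15, numpy 2.4.6, pandas 2.3.3 and scipy 1.17.1 were used. Alternatives covered scaling, depth, ranking, group size, count minimum and fold. Promoter windows came from RefSeq on GRCh38.p14, by symbol.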

Additional observations from a re-analysis of the deposited data

How the results depend on the processing

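The counts of higher and lower genes (181 and 78, 11.6% and 5.00% of those compared) moved with scaling, the fold and the number of genes compared more than with the ranking genes. Spike-in scaling gave 713 higher and 3 lower, so that 99.6% of the genes past 1.5-fold were higher against 69.9%. Thinning cells to 1 depth gave 74 and 51 of 683 genes, 10.8% and 7.47% of those compared (59.2% of the genes past 1.5-fold were higher). A minimum of 38 UMIs gave 460 and 225 of 2750 genes (16.7% and 8.18%). One of 190 UMIs gave 51 and 18 of 619 (8.24% and 2.91%). A 2-fold mark gave 41 and 5 (89.1% higher). Taking 10 cells at each end gave 118 higher of 773 compared genes, a larger share (15.3%). Taking 38 cells at each end gave 137 and 100 of 2805, or 4.88% and 3.57% (57.8% higher). The lower count was 127 by the mean of cell shares, 45 with each gene's highest cell left out, and 43 without the 19 cells of highest G2 and M share, an alternative chosen after seeing the data, as was leaving out the 19 cells of highest mitochondrial mRNA share. The other 30 of 44 recomputed counts were within 1.5 times. Of the recomputed ratios of named genes 1681 stayed inside the counting interval, 388 moved outside it and 2 of genes past 1.5-fold crossed 1, CCNB1 (0.765 without the G2 and M cells) and NUSAP1 (0.989 with 38 cells at each end); the cause was not tested. Of the 49 named genes within 1.5-fold 37 crossed 1 in at least 1 alternative. All 15 higher genes stayed above 1 and all 15 lower genes below 1 in every alternative run, past 1.5-fold in 7 and 4 with 38 cells at each end and in 15 and 3 under spike-in scaling. These genes were chosen as past 1.5-fold by the mean of cell shares and with the highest cell left out. For those 2 alternatives the outcome was therefore fixed by the choice, and the others reuse the same cells. No paired analysis was possible because the cells form 1 group with no pairing label. Depth limits the low cells most: with a median of 2 immediate early UMIs per cell, single low cells cannot be ordered.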
